A study of Mus musculus with 16 samples.

Results

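The comparison set mouse embryonic stem cells carrying the F46A mutation of Uhrf1 against wild-type J1 cells, using the LINE1 methylation amplicon of both. It used 8 of the 16 libraries of the series, 4 titled F46A and 4 titled wtJ1, and the genotype was read from those titles. J1 cells are a line of strain 129S4/SvJae, and both groups were kept in serum medium containing LIF and the 2i inhibitors of MEK and GSK3, so they share a medium in which methylation is low. The F46A cells express UHRF1 with a changed residue in its ubiquitin-like (UBL) domain. The remaining libraries are 4 of a Uhrf1 knockout (Uhrf1 KO) and 4 of H730A, a mutant of the RING domain, and they are used here only for reference. The series calls the 4 libraries of a genotype biological replicates without saying what was separate between them. The spread between libraries that the permutation p-values measure may therefore be technical. P-values of sites and copies come from models of calls. They also rest on counting error and on a dispersion shared across sites or across copies, so they do not measure that spread alone. Fisher's exact test on summed calls holds no such spread. The genotype could not be checked in these reads, which come from LINE1 and not from Uhrf1.

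UHRF1 keeps DNA methylation through cell division. Its SRA domain binds the hemimethylated CpGs left by replication, its RING domain ubiquitinates histone H3, and the ubiquitin marks recruit DNMT1, the maintenance methyltransferase. The UBL domain cooperates with the RING domain in that ubiquitination, and the question of the series is how far the ligase activity depends on it. LINE1 elements are retrotransposons with very many near-identical copies, so primers for a shared stretch read CpGs of many loci at once.

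Tested sites were CpGs covered by 10 or more calls in each of the 8 libraries, where a call is 1 read showing C (methylated) or T (unmethylated). This kept 10572 of 49722 listed sites, which carried 90.2% of all calls. Joining same-strand sites up to 200 bp apart gave 781 LINE1 copies on 20 chromosomes, of which 223 lay within the span of a gene and 102 on the X chromosome. Each copy held 7 to 48 tested sites, with a median of 12. Libraries held 998982 to 1239606 calls and a median of 56 to 68 calls per site. The retained share is the level in F46A divided by the wtJ1 mean, in percent. No genome was given, so no sequence of the amplicon is shown.

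Some libraries stood apart. In wtJ1, replicates 1 and 2 did not differ in coverage (chi-square p = 0.477) or in levels by amplicon position (p = 0.374), although they differed over single sites (p = 0.00116). Coverage did not set this pair apart, since replicates 2 and 3 gave a chi-square p of 0.502 and replicates 2 and 4 of 0.455. Replicates 3 and 4 were closer over single sites (chi-square p = 0.246) but differed by position (p = 0.0137). These chi-square tests compare the calls of 2 libraries and hold no spread between samples. As a precaution wtJ1 1 and 2 were merged into a single value for means and SDs, which leaves 3 for wtJ1. In F46A, replicate 2 had another profile along the amplicon than the other 3 libraries, shown with the positions below, and the position comparisons, the whole level and the counts of departing copies are given with and without it.

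LINE1 methylation was far lower in F46A than in wild type, and all 781 copies fell. The wtJ1 libraries had levels of 24.6, 24.5, 25.2 and 25.0%, with a mean of 24.9% ± 0.357 (SD, n = 3). The F46A libraries had levels of 5.63, 5.16, 4.27 and 6.53%, with a mean of 5.39% ± 0.944 (SD, n = 4). The groups did not overlap, and the highest F46A library stayed far below the lowest wtJ1 library. The difference of the 4-library means was -19.4 percentage points (95% interval -20.9 to -17.9, exact two-sided permutation test, p = 0.0286, the smallest that 4 against 4 allows). With wtJ1 1 and 2 as 1 sample the difference was -19.5 points, and the exact permutation p was 0.0571, the smallest that 3 against 4 allows.

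F46A retained 21.7% ± 3.79 (SD, n = 4) of the wild-type level, with an interval of 16.9 to 26.7%, which is 4.62-fold lower. By library the retained share was 22.6, 20.7, 17.1 and 26.2% for F46A 1 to 4. Without F46A 2 it was 22.1%. Counting error alone was small beside this spread, since no library level had a 95% Wilson interval wider than 0.0846 points to either side. Such intervals cover counting error only, because PCR reads without molecular identifiers are not independent molecules and the CpGs of 1 read share a copy.

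**Figure D1:**
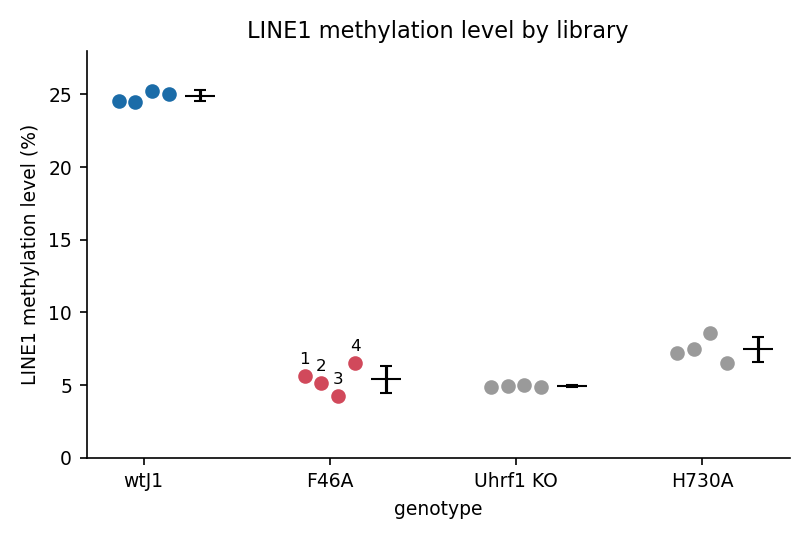
LINE1 methylation level (percent of calls methylated, vertical axis) of each library (points) by genotype (horizontal axis), with mean and SD as bars (n = 3 for wtJ1, 4 for the others) and the F46A replicate numbers above their points. The F46A libraries lie between 4.27 and 6.53%, below all 4 wtJ1 libraries.

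The F46A level lay close to that of the knockout and below the mean of H730A. Uhrf1 KO had 4.95% ± 0.0672 (SD, n = 4) and retained 19.9% ± 0.270 of wild type, whereas H730A had 7.45% ± 0.873 and retained 29.9% ± 3.51 (SD, n = 4). F46A was 0.448 points above the knockout (interval -0.775 to 1.63, exact permutation p = 0.400, adjusted over 2 comparisons 0.400). It was 2.06 points below H730A, as a difference of -2.06 (interval -4.34 to 0.0210, exact permutation p = 0.0571, adjusted 0.114). Neither difference passed the test, and neither interval shows that the genotypes are alike.

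Every copy lost methylation, and most lost about the same share. In the quasi-binomial model of calls per copy, with limma's moderated dispersion and Benjamini-Hochberg adjustment at 0.05, 781 of 781 copies were lower in F46A (100%) and 0 were higher (0%), also by Fisher's exact test and by limma on logit levels. At 780 copies the 4 F46A libraries all lay below the 4 wtJ1 libraries. The median copy level went from 25.4% in wtJ1 to 5.33% in F46A. The median retained share per copy was 21.5%, with a middle 50% of 19.3 to 23.8%, and 720 copies retained between 15 and 30%. The extremes were 8.36 and 47.2%, with 2 copies under 10% and 3 over 40%, but among the 460 copies with at least 500 calls in every library the range narrowed to 12.8 to 39.8%. The median 95% Wilson interval of a copy in a single library reached 3.00 points to either side in wtJ1 and 1.59 points in F46A.

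The 6 copies with the most calls retained between 20.2 and 26.1%. A copy at chr16:16507552-16508118 (mm10, + strand), within the span of Fgd4, a gene for a guanine nucleotide exchange factor of Cdc42, had 38 sites and 297129 calls over the 8 libraries. Its wtJ1 levels were 23.6, 23.9, 25.0 and 24.5%, and its F46A levels were 5.10, 4.72, 3.84 and 6.06%, in the same order as the whole libraries. It retained 20.2% ± 3.77 (SD, n = 4). A copy at chr2:42083590-42083732 (+ strand), within Lrp1b, a gene of the LDL receptor family, had wtJ1 levels of 24.3, 24.9, 24.8 and 24.7% and F46A levels of 5.81, 5.15, 3.98 and 6.997%. It retained 22.2% ± 5.10.

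The other 4 of the 6 deepest copies lay outside gene spans. Their retained shares were 24.2% ± 4.59 at chr16:84941949-84942727, 21.8% ± 3.63 at chr14:100801299-100801653, 26.1% ± 3.55 at chrX:14571292-14571646 and 22.6% ± 3.27 at chr15:65273050-65273404 (SD, n = 4 each). In the test of a departure from the amplicon-wide share described next, the copy at 84941949 on chr16 and that on the X chromosome were above it (adjusted p = 0.00335 and 0.000917, log-link model) and the Fgd4 copy below it (adjusted p = 0.0143). Matched by amplicon position, the copy at 84941949 no longer passed (adjusted p = 0.0620), while the other 2 did (0.0258 and 0.00815). LINE1 copies are near-identical, and the sources used here do not give how reads matching several copies were placed, so the assignment of a value to 1 copy or gene is uncertain.

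A small set of copies departed from the shared loss. A log-link model asked, per copy, whether its retained share differed from that of the whole library. After Benjamini-Hochberg adjustment over 781 copies, 21 copies retained more (2.69% of copies) and 9 retained less (1.15%), and 120 had an unadjusted p under 0.05. The copies above started from a low wild-type level, with a median of 19.8%, and those below from a high one, with a median of 34.5%, beside 25.4% for all copies. The same wtJ1 levels enter the tested share, so part of this contrast follows from how the copies were called. Over all 781 copies, the level in wtJ1 1 and 2 and the share over wtJ1 3 and 4 had a Pearson r of -0.243. The called copies were also deeper: over the 8 libraries the 21 above had a median of 34192 calls and the 9 below 7616, beside 6122 for all copies, and the part of depth in these calls was not tested. Copies differ in which amplicon positions they hold, so each copy was also set against the level of its own amplicon positions. Then 19 and 8 copies passed, 17 and 8 of them shared with the first test. These counts leaned on single libraries: without F46A 4 they were 9 and 3, and without F46A 1 they were 14 and 4, while without F46A 2 they were 24 and 13.

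**Figure D2:**
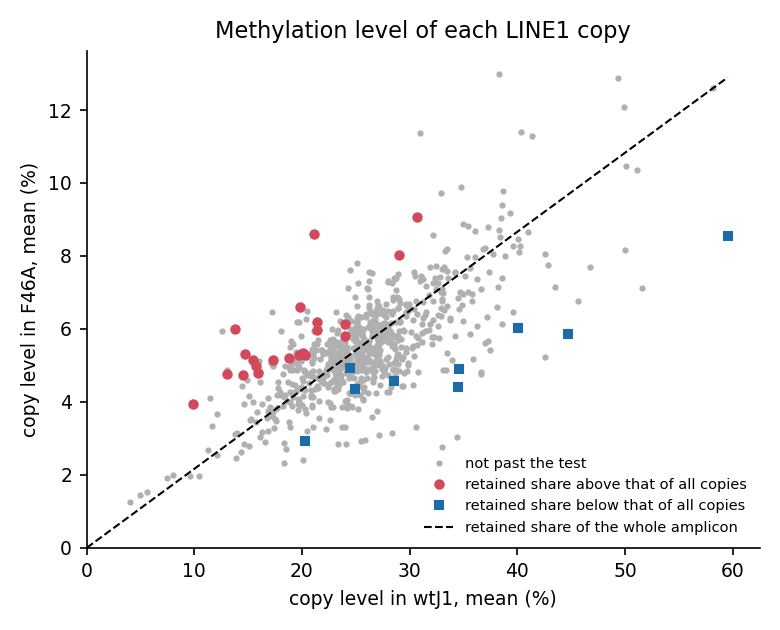
Mean level of each of 781 LINE1 copies in F46A (vertical axis, percent) against its mean level in wtJ1 (horizontal axis, percent), with the amplicon-wide retained share of 21.7% as a dashed line. The 21 copies retaining more (red circles) lie mostly toward low wild-type levels and the 9 retaining less (blue squares) toward higher ones, and the vertical axis spans a smaller range than the horizontal one. The wtJ1 levels also enter the test that called these copies.

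A copy above the line lay within Lrrc69, a gene for a leucine-rich repeat protein, at chr4:14679386-14679740 (- strand, 22 sites). Its wtJ1 levels were 13.5, 14.8, 14.2 and 15.7%, and its F46A levels were 5.60, 4.91, 4.43 and 6.31%. The F46A mean of 5.31% was close to the median copy, while the wild-type mean of 14.7% was well below it. It retained 36.2% ± 5.59 (SD, n = 4), 0.76 above the whole library on the log2 scale, with an adjusted p of 8.82e-15 from the log-link model with limma's moderation. Uhrf1 KO had 5.25% and H730A 5.30% at this copy.

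The other 4 copies with the highest retained share among those past the test with at least 500 calls per library were less even between libraries. A copy at chr10:106390993-106391118 retained 39.8% ± 19.5, from F46A levels of 4.61, 2.25, 2.53 and 6.36% and a wtJ1 mean of 9.90% ± 1.36. Its call was lost when matched by position (adjusted p = 0.0390 before and 0.123 after, log-link model). A copy within Slc22a22, a gene for a solute carrier, at chr15:57423675-57424029 had F46A levels of 7.28, 3.96, 4.03 and 11.1%, and it retained 33.2% ± 17.02. In both, F46A 4 was the highest library. The remaining 2, at chr14:13694446-13694591 and chr8:65403726-65403868, retained 36.6% ± 12.4 and 33.3% ± 6.03.

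Among called copies with at least 500 calls per library, 4 of the 5 lowest retained shares came from copies above the median wild-type level. The wild-type level is also the denominator of that share. At chr1:150233137-150233279 (+ strand, outside genes) the wtJ1 levels were 58.2, 56.7, 60.4 and 60.8%, and the F46A levels were 6.96, 11.3, 6.50 and 9.38%. This copy fell by 50.7 points and retained 14.3% ± 3.77 (adjusted p = 0.00173, log-link model). H730A had 24.8% ± 3.50 there (SD, n = 4) and Uhrf1 KO 8.93% ± 3.02. A copy within Lrmda, a gene linked to melanocyte differentiation, at chr14:22835546-22835688 went from 44.7% ± 1.196 to 5.85% ± 1.88 and retained 13.1% ± 4.198.

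Copies at chr6:107676996-107677138 and chr8:52306886-52307028 went from 34.5 and 34.6% to 4.42 and 4.90%. They retained 12.8% ± 4.43 and 14.2% ± 3.75 (SD, n = 4). The fifth, at chr5:58777823-58778181, started at 20.3% and retained 14.5% ± 3.08. At each of these 5 copies the 4 F46A libraries lay below the 4 wtJ1 libraries, as at 780 of all 781 copies.

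Wild-type and F46A levels rose together across the 781 copies (Pearson r = 0.700, Spearman rho = 0.638, as a description, since copies share libraries and near-identical sequence). To see the share without a shared denominator, copies were ranked by wtJ1 1 and 2 into 4 groups of equal size and divided by wtJ1 3 and 4. From the lowest group to the highest, the wild-type level went from 19.0 through 24.2 and 27.05 to 32.4%, and F46A from 4.56 through 5.19 and 5.79 to 6.68%. The retained share was 24.0% ± 4.53, 21.4% ± 3.71, 21.4% ± 3.78 and 20.6% ± 3.33 (SD, n = 4 F46A libraries). The largest step was between the lowest group and the next, and in each F46A library the lowest group had the highest share.

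The retained share was close in copies of different genomic setting. It was 21.8% ± 3.94 on the X chromosome and 21.6% ± 3.77 on autosomes, 21.5% ± 3.96 within gene spans and 21.7% ± 3.72 outside them. Chromosomes ranged from 20.5 to 23.6%. Of 10 classes tested by strand, coverage, gene span and chromosome, 0 passed the exact permutation test after adjustment. The smallest adjusted p was 0.0571, and 5 classes had the smallest possible unadjusted p of 0.0286. With 5 classes at that limit the adjusted p cannot fall below 0.0571, so 0 passing does not show that the classes are alike. From the least to the most covered group of copies the retained share was 20.7% ± 3.41, 20.5% ± 3.64, 21.2% ± 3.87 and 22.1% ± 3.83. The 5 classes at the limit were both strands and the coverage groups with 20.7, 20.5 and 22.1%. Copies with 2 or more amplicon units in tandem (83) retained 22.3% ± 3.83, beside 21.4% ± 3.78 for the 696 copies with 1 unit.

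Copies fell within the spans of 179 genes, 140 protein-coding and 39 lncRNA, by the RefSeq gene table of GRCm38.p6. Exons and introns were not annotated. Beside Fgd4 and Lrrc69, the 2 copies of Lrp1b together retained 22.1% ± 5.02, and the 2 copies of Slc8a1, the gene of a sodium-calcium exchanger, went from 25.6% ± 0.849 to 5.84% ± 1.29 and retained 22.8% ± 5.04.

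At the level of single CpGs, 10062 of 10572 sites were lower in F46A (95.2%) and 3 were higher (0.0284%), by the quasi-binomial model with limma's moderation and adjusted p under 0.05. At 9274 sites (87.7%) every F46A library lay below every wtJ1 library. The 507 sites not called either way had a median wild-type level of 9.92%, beside 25.2% over all sites. Among the 7571 sites with at least 20% in wild type, the median retained share was 19.9%, with a middle 50% of 12.4 to 27.6%. Of these, 66 sites retained over 50% and 286 under 5%. The median 95% Wilson interval of a site in 1 library reached 10.2 points to either side in wtJ1 and 5.82 points in F46A. Sites just outside the minimum (lowest coverage of 7 to 9 calls, 1375 sites) retained 19.5%, as did those just inside it (10 to 12 calls, 1033 sites).

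The 3 sites called higher had little depth. On chr10 at 112587346 the wtJ1 libraries had 75, 55.6, 55.2 and 67.7% and the F46A libraries 87.5, 64.7, 69.2 and 84.6%, with 13 to 31 calls each, and the groups overlapped. This site lies off the amplicon template and was also high in Uhrf1 KO (79.1% ± 16.1) and H730A (85.1% ± 6.17, SD, n = 4 each). At 4982513 on chr13 there were 0 methylated of 95 calls in wtJ1, which allows up to 3.16%, and 5 of 97 in F46A. At 21650915 on chr4 there were 0 of 68 calls in wtJ1, which allows up to 4.41%, and 4 of 70 in F46A. Without F46A 4 no site was called higher, without wtJ1 2 or wtJ1 3 there was 1, and without F46A 1 or wtJ1 1 there were 2. No site with at least 30 calls in every library was higher.

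Single sites spread around the library-wide share in both directions. In the log-link test, 615 sites retained more than the library as a whole (5.82%) and 745 retained less (7.05%). Set against the level of their own amplicon position, 24 and 9 sites passed, 21 and 7 of them shared with the first test. The counts depend on how sites with no methylated call enter the moderation: with 6 degrees of freedom at every site they were 140 and 158. They were 389 and 445 without F46A 1, and 414 and 452 without F46A 4.

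Among sites with at least 30 calls per library and at least 20% in wild type, a site at 79965743 on chr3 (- strand, outside genes) retained 63.6% ± 23.7 and passed that test. Its wtJ1 levels were 29.9, 18.2, 21.4 and 25.5% and its F46A levels 19.1, 14.3, 19.3 and 7.41%, so the groups overlapped. Sites at 124972216 and 61514436 on chr1 and 89440769 on chr17 retained 61.8% ± 39.7, 61.2% ± 31.99 and 58.6% ± 31.6. These 4 head the list, but their order depends on the wild-type mean: with 4 wtJ1 libraries the site at 61514436 retained 66.9% and that on chr3 63.3%. Matched to their amplicon position, 3 of the 4 no longer passed (adjusted p = 0.533, 0.650 and 0.376, log-link model). The site at 61514436 lies off the template and has no position to be matched to. It was set against all 133 off-template sites together (adjusted p = 0.00519, log-link model), which does not show a departure from a position. At 61514436 the loss itself did not pass the test (adjusted p = 0.122, quasi-binomial model with limma's moderation). At the other end, 6 sites of this depth had no methylated call in any F46A library. One lay at 5090276 on chr10 (+ strand), within Syne1, a gene for a nuclear envelope protein, with 51 of 217 calls methylated in wtJ1 and 0 of 223 in F46A, which allows up to 1.35% and makes it at least 17.47-fold lower than the summed wtJ1 calls. Others lay at 95840920 on chr6, with 0 of 185, and at 148460837 on chr2, with 0 of 175. These were at least 15.0-fold and 14.3-fold lower. Matched to their position, these 3 sites did not pass the log-link test either (adjusted p = 0.163, 0.151 and 0.165).

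Retained shares differed between the CpG positions of the amplicon, from 9.88 to 37.3% over the 14 positions other than position 1. The most common pattern of CpG distances was held by 128 of 781 copies. With frequent positions of other copies added, it gave 15 positions, numbered in bp from the first CpG. Of the 10572 tested sites, 10439 lay on these positions, and calls were summed over copies at each position. At 14 of 15 positions (93.3%) F46A was lower than wtJ1 with no overlap (exact permutation p = 0.0286 each, adjusted over 15 positions 0.0306). With wtJ1 1 and 2 as 1 library 0 positions passed, since 3 against 4 cannot give less than 0.0571. Position 1, with 36 sites, was nearly unmethylated in both groups, at no more than 0.496% in any of the 8 libraries. No position level of a library had a Wilson interval over 0.491 points to either side, position 1 aside.

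The highest retained shares were at positions 53 and 90. At position 53 wtJ1 had 20.5% ± 0.268 (SD, n = 3), and the F46A libraries had 7.80, 8.22, 5.65 and 8.84%, a retained share of 37.3% ± 6.78 (SD, n = 4). At position 90 wtJ1 had 30.2% ± 0.424 and the F46A libraries 10.9, 6.73, 9.08 and 12.03%, a share of 32.02% ± 7.65. Positions 110, 103 and 49 followed with 27.2% ± 6.07, 27.1% ± 5.23 and 24.4% ± 5.41.

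The lowest shares were at positions 150, 8 and 86. At position 150 wtJ1 had 26.7% ± 0.498 and the F46A libraries 2.74, 2.42, 2.31 and 3.09%, so 9.88% ± 1.31 was retained. Position 8 had 23.6% ± 0.515 in wtJ1 and 2.45, 3.70, 1.52 and 3.01% in F46A, a share of 11.3% ± 3.90. Position 86, which lies 4 bp before position 90, retained 11.7% ± 2.81, against 32.02% at its neighbour. Between these, positions 25, 113, 29, 18, 34 and 65 retained 22.8% ± 4.08, 22.5% ± 6.51, 19.5% ± 3.58, 19.3% ± 4.13, 17.6% ± 6.09 and 15.7% ± 3.93 (SD, n = 4 each).

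When each position was divided by its library's own level, 8 of 15 positions (53.3%) separated F46A from wtJ1 without overlap. The relative level was higher in F46A at positions 53, 90 and 103, by 1.72, 1.49 and 1.25 times, and lower at positions 150, 8, 86, 65 and 29, by factors of 0.460, 0.522, 0.538, 0.720 and 0.897. Each had an exact permutation p of 0.0286, the smallest possible, but the adjusted value over 15 positions was 0.0536, so 0 passed. Without F46A 2, 13 positions separated without overlap, 6 above and 7 below, where 3 against 4 cannot give less than 0.0571. The single sites followed the same order: 236 of 795 sites at position 53 and 187 of 855 at position 90 retained more than the library, and 271 of 786 at position 150, 177 of 843 at position 86 and 167 of 761 at position 8 retained less. Over all 10572 sites, 5.82% retained more and 7.05% less. The site calls depended on the model. With 6 degrees of freedom at every site, 140 sites retained more and 158 less. When F46A and wtJ1 libraries were paired by their number, 0 sites retained more and 0 less. The sites counted here by position are the same calls that make up the position levels.

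Against the knockout, whose overall level was close, the F46A profile differed. Relative levels differed at 9 of 15 positions (60% of positions, exact permutation p = 0.0286 each, adjusted 0.0476). They were higher in F46A at positions 34, 8, 113, 65 and 86, by 2.91, 2.22, 2.14, 1.86 and 1.28 times. They were lower at positions 90, 49, 53 and 25, by factors of 0.770, 0.782, 0.822 and 0.889. These 9 had no overlap between the groups, so leaving out F46A 2 could not undo that. Without F46A 2, 10 positions separated, where 3 against 4 cannot pass the test. The factors at positions 34, 8 and 113 were then 2.496, 1.88 and 1.91. At position 34 the knockout retained 5.50% and F46A 17.6%, and at position 113 the shares were 9.59 and 22.5%. Against H730A, 0 of 15 positions passed (0%), although 6 separated without overlap at an unadjusted exact p of 0.0286, and the smallest adjusted p was 0.0714. Without F46A 2, 11 positions separated without overlap, where 3 against 4 cannot pass the test. The same 6 are among them of necessity, since leaving out a library cannot undo a separation. H730A retained 35.04 and 43.2% at positions 34 and 113. With 4 against 4 libraries no position can go below 0.0286, so the adjusted values follow from how many positions reached it. These were 9 against Uhrf1 KO, 8 against wtJ1 and 6 against H730A. Passing against the knockout alone therefore does not show a larger departure from it than from wtJ1 or H730A.

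The F46A libraries varied far more among themselves than the wild-type or knockout libraries. The coefficient of variation of the level was 17.5% in F46A, beside 11.7% in H730A, 1.43% in wtJ1 and 1.36% in Uhrf1 KO. The highest F46A library stood 1.53 times above the lowest. These ratios were not tested between genotypes.

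The order of the libraries recurred across the genome. F46A 4 was the highest and F46A 3 the lowest library on all 20 chromosomes. Among copies, F46A 4 was highest in 480 and F46A 3 lowest in 496 of 781, and F46A 4 lay above F46A 3 in 693. The median retained share per copy was 22.0, 20.4, 16.8 and 25.7% for F46A 1 to 4. The middle 50% of copies spanned 13.5 to 20.3% in F46A 3 and 21.7 to 30.4% in F46A 4, which do not overlap.

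**Figure D3:**
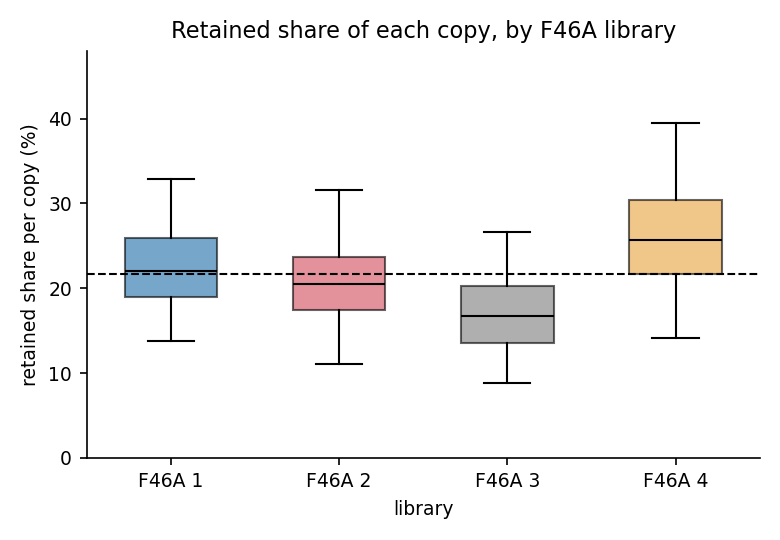
Retained share of the wtJ1 level per copy (vertical axis, percent) in each F46A library (horizontal axis) over 781 copies, as median line, middle 50% (box) and 5th to 95th percentile (whiskers), with the amplicon-wide share of 21.7% dashed. The medians run from 16.8% in F46A 3 to 25.7% in F46A 4, and the boxes of those libraries do not overlap.

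Along the amplicon the order changed in 1 library. F46A 3 was the lowest library at 11 of the 14 positions other than position 1, and F46A 4 the highest at 11. F46A 2 was lowest at the other 3 (positions 49, 90 and 110) and highest at 3 (positions 8, 34 and 113). F46A 2, whose overall level lay below those of F46A 1 and 4, held 3.70% at position 8 while F46A 4 held 3.01%, and 6.73% at position 90 while F46A 3 held 9.08%.

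The ratio of position 113 to position 90 summarised this, and was picked after the values were seen. It was 0.594, 1.34, 0.502 and 0.720 in F46A 1 to 4. It lay between 1.05 and 1.07 in wtJ1, between 0.260 and 0.267 in Uhrf1 KO and between 1.34 and 1.64 in H730A. By this ratio F46A 2 sat at the lower end of the H730A range, and the other F46A libraries lay between the knockout and wild type. The ratio of position 34 to position 49 was 0.685 in F46A 2, within the H730A range of 0.565 to 0.690. It was 0.518 to 0.532 in wtJ1, 0.234 to 0.361 in the other F46A libraries and 0.0991 to 0.104 in Uhrf1 KO. Other measures placed F46A 2 elsewhere. Its ratio of position 53 to position 49 was 1.40, above every other library, beside 0.705 to 0.961 in H730A and 0.799 to 0.906 in the other F46A libraries. Its level at position 8 was 3.70%, beside 6.82 to 7.80% in H730A. The ratio of position 113 to position 90 was also taken on the + strand, the - strand, the X chromosome and single-unit copies. There it was 1.34, 1.35, 1.37 and 1.34 in F46A 2, and no other F46A library exceeded 0.733. Counted by copy, 381 of 645 single-unit copies had a higher level at position 113 than at position 90 in F46A 2, against 77, 77 and 120 in F46A 1, 3 and 4. This count was 356 to 381 in wtJ1, 443 to 499 in H730A and 17 to 23 in Uhrf1 KO. By it F46A 2 lay at the upper end of wtJ1 and below every H730A library. Copies with a lower level at position 113 numbered 153 in F46A 2, 215 to 230 in wtJ1 and 77 to 142 in H730A. By those F46A 2 lay between wtJ1 and H730A. The median difference per copy was 2.11 points in F46A 2, 1.49 to 2.78 in wtJ1 and 3.88 to 5.19 in H730A. Whether F46A 2 differs in its cells or its handling was not tested.

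**Figure D4:**
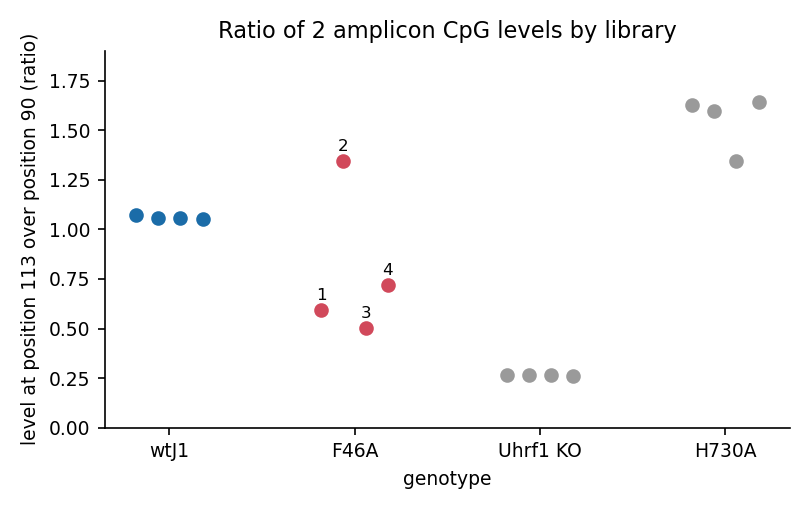
Ratio of the methylation level at amplicon position 113 to that at position 90 (vertical axis) for each library (points) by genotype (horizontal axis), with F46A replicate numbers above their points. F46A 2, at 1.34, lies above all wtJ1 libraries, while the other 3 F46A libraries lie between 0.502 and 0.720.

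The spread over single sites shrank once these differences were scaled out. The mean dispersion of site levels among the F46A libraries, which is 1 under counting error alone, was 1.33 as measured, 1.19 after scaling by library level and 1.06 after scaling by library and position. The same values were 1.04, 1.03 and 1.03 in wtJ1, and 1.21, 1.12 and 1.07 in H730A. What remained in F46A was near the wild-type value.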

How the data were processed

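Per the file headers, each library's file gives, for every CpG and strand, the count of C calls and the count of C plus T calls. The fraction of C calls deposited beside them was not used. The submitters' processing notes name Trim Galore 0.3.1, BSMAP 2.90, methylKit and mm10 but not their roles. Only CpG context is listed, which leaves bisulfite conversion unmeasured.

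Levels are summed methylated calls over summed calls. Whole-library, position and class values were compared by exact two-sided permutation tests, with intervals from inverting them. Sites and copies were tested on counts by quasi-binomial (difference) and quasi-Poisson (share relative to the library) models, with dispersion moderated by limma 3.58.1 in R 4.3.3 and kept at or above 1, and Benjamini-Hochberg adjustment at 0.05 over all sites or copies. Both models were tested on simulated counts. These held no spread between libraries beyond their level, so how the models behave under such spread was not tested. A genotype with no methylated call at a site gives no degrees of freedom, a choice made after the counts of calls were seen. The prior degrees of freedom of sites are then infinite, so site p-values rest mostly on counting error and a common dispersion.

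The amplicon template is the most common pattern of CpG distances (128 copies), with positions present in 30 or more copies added. A unit needed at least 6 sites, giving 882 units, 10439 sites on the template and 133 off it. Matching by position took the 133 sites off the template as 1 group. Members, lists and tests were chosen with earlier results of these data known. Named were all positions, the 6 deepest copies, the 5 highest and 5 lowest retained shares among called copies with at least 500 calls per library, 4 sites at either end with at least 30 calls per library and 20% in wild type, sites called higher, and the 6 genes with the most calls. Of these, 1 site and 2 genes are not reported here. Alternatives were coverage minimums of 30 and 100 calls, sites set by 16 libraries, single strands, thinning to 10 calls, gaps of 100 and 500 bp, other tests, each replicate left out and the replicate block.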

Additional observations from a re-analysis of the deposited data

Results flagged for a closer look

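Among 86 groups of 4 libraries looked at for the reported levels, 3 held a library whose gap to the nearest other took more of the group's range than Dixon's 95% critical value of 0.829. Chance flags about 1 in 20 such groups. At the copy at chr14:100801299-100801653, F46A 3 had 3.86% beside 5.44, 5.58 and 5.65% in the other F46A libraries, a gap of 0.884 of the range. At the copy at chr6:107676996-107677138, wtJ1 2 had 39.4% beside 33.6, 33.03 and 33.8%, a gap of 0.874 of the range. At the copy at chr8:52306886-52307028, wtJ1 2 had 41.4% beside 33.1, 33.03 and 33.4%, a gap of 0.956 of the range. The retained shares of these copies ranged from 21.4 to 24.0%, 10.8 to 14.04% and 12.4 to 15.4% when each library was left out in turn.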

How the results depend on the processing

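The retained share of the whole amplicon stayed between 20.2 and 23.3% when each library was left out, and the level difference between -19.8 and -19.0 points, with the exact permutation p at 0.0571, the smallest that 3 against 4 allows. All 781 copies stayed lower and none higher in those runs. With calls of wtJ1 1 and 2 summed, the difference was -19.5 points (exact permutation p = 0.0571) and 0 positions passed.

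At least 30 calls (7417 sites) left 0 sites higher. At least 100 calls (1841 sites, 143 copies) left 1834 sites lower, 0 higher, 143 copies lower, and 346 sites retaining more and 433 less. The + strand (5772 sites) gave 5482 sites and 424 copies lower, with 341 and 406 sites retaining more and less. The - strand (4800 sites) gave 4578 sites lower, 0 higher, 357 copies lower, 4 copies retaining more and 3 less, and 269 and 329 sites.

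Sites retaining more and less numbered 24 and 9 when matched by position, 140 and 158 with 6 degrees of freedom at every site (both chosen after seeing the data), and 111 and 264 by limma on log2 of the level plus 1 percent, which called 13 copies above. The cause was not tested. Fisher's exact test called 1 site higher.

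Leaving out each library gave 9 to 24 copies retaining more and 3 to 13 less, 9912 to 10015 sites lower, 0 to 3 higher, 389 to 577 sites retaining more and 445 to 729 less, and 0 positions lower, since 3 against 4 cannot pass.

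Same-numbered libraries did not deviate together (r = -0.0071, -0.0105, -0.0064 and 0.0131 over sites), and a library correlated best with its own number in 1 of 4 cases. With the replicate number as a block, the difference was -19.4 points (exact p = 0.125, the smallest that 4 pairs allow), sites lower 9617, higher 0, retaining more 0 and less 0 (1414 at an unadjusted p under 0.05), and positions lower 0. The block gave 781 copies lower, with 23 retaining more and 11 less.

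Depth limits single sites, with medians of 56 to 68 calls, more than copies or positions.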
